A study of Mus musculus with 6 samples.

Results

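The genes described here were 10 genes of neutrophil granules and calprotectin: S100a8, S100a9, Ngp, Camp, Ltf, Lcn2, Elane, Mpo, Prtn3 and Cebpe. They were taken by symbol from a table of 36870 distinct symbols, as a check for granulocyte RNA in bone marrow cultures. The cultures were bone marrow mesenchymal stem cells (BMMSCs) of C57BL/6 mice, which are plastic-adherent cells grown out of flushed femur and tibia marrow and labelled as passage 2. In 3 control libraries the cells carried a non-targeting control siRNA, and in 3 siRNA libraries they carried siRNAs against Tet1 and Tet2. TET enzymes oxidise 5-methylcytosine. Both groups came from the same strain and the same kind of culture of adherent marrow cells, which can still hold adherent blood cells. The labels do not say whether the 3 libraries of a group came from separate animals or cultures, so the p-values measure only the spread between these libraries.

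Neutrophils fill their granules in waves while they mature in the marrow. Promyelocytes make the azurophil granule proteins, among them myeloperoxidase (Mpo), neutrophil elastase (Elane) and proteinase 3 (Prtn3). Myelocytes and metamyelocytes then make the specific granule proteins, among them cathelicidin (Camp), lactoferrin (Ltf), lipocalin-2 (Lcn2) and neutrophilic granule protein (Ngp), for which the transcription factor C/EBP epsilon (Cebpe) is needed. Calprotectin is the dimer of S100A8 and S100A9, calcium- and zinc-binding proteins of the neutrophil cytosol that are also made by monocytes. Lcn2, S100a8 and S100a9 can be induced by inflammatory cytokines in cells outside the granulocyte lineage.

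On GRCm38, S100a8 lay at chr3:90668978-90670035 on the plus strand and S100a9 at chr3:90692632-90695721 on the minus strand, 22597 bases apart. Camp (chr9:109847379-109849617, minus strand), Ngp (chr9:110419747-110423012, plus strand) and Ltf (chr9:111019271-111042767, plus strand) lay on the same chromosome, with 1169654 bases between Camp and Ltf. Prtn3 (chr10:79874476-79883174) and Elane (chr10:79886247-79888215) lay on the plus strand with 3073 bases between them. Lcn2 (chr2:32384633-32388252, minus strand), Mpo (chr11:87793581-87804413, plus strand) and Cebpe (chr14:54710360-54712174, minus strand) stood alone on their chromosomes among these genes. RefSeq promoter windows of GRCm38.p6, which run from 250 bases before the transcription start to 50 bases after it, were matched for 9 of the 10 genes. The gene coordinates above are those of GENCODE, whose starts can differ from the RefSeq starts. Except for that of S100a9, every window reaches more than 50 bases into the gene as listed above. The windows of Lcn2 (chr2:32387690-32387989) and Prtn3 (chr10:79879417-79879716) lie wholly inside the listed gene. The windows of the calprotectin pair and of Camp are shown because S100a8 and Camp were the members that changed and S100a9 is the partner of S100a8. They are written 5′ to 3′ on the strand of the gene, with each CG dinucleotide, the main target of DNA methylation, in capitals.
S100a8 promoter, chr3:90668821-90669120: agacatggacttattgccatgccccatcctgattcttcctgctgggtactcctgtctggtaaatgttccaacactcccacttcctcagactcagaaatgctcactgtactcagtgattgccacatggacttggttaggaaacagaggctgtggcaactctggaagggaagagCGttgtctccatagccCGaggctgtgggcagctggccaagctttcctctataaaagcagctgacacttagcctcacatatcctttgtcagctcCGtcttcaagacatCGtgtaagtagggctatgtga
S100a9 promoter, chr3:90695672-90695971: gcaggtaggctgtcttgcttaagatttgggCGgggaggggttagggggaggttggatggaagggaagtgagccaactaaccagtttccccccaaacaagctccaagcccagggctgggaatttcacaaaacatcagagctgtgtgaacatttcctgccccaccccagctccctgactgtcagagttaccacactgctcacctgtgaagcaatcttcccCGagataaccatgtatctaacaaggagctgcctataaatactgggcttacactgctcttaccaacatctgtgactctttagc
Camp promoter, chr9:109849407-109849706: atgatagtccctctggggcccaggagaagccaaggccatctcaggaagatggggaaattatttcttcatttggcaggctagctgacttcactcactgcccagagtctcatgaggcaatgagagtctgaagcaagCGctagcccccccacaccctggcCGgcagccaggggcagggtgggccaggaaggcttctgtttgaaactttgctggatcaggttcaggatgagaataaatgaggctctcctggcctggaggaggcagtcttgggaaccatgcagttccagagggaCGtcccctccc

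The S100a8 window held 4 CG dinucleotides, the S100a9 window 2 and the Camp window 3. Over the 9 members with a window the count ran from 2 to 6, and all 9 lay below the median of 7 in the 32851 windows of the same length. The letters TATAAA, searched on both strands, were present in the windows of S100a8 and S100a9 and in none of the other 7. They were present in 13.6% of all windows. A C/EBP-type motif, TTGCNNAA on both strands, was present in 4 of the 9 windows (S100a9, Ngp, Ltf and Lcn2) and in 10.8% of all windows. These matches describe the letters of the windows only. DNA methylation at these windows was not analysed here.

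The table gave RPKM (reads scaled by transcript length and library depth) with a lowest listed value of 0.001, which is less than a single read would give for any of the 10 genes. Most low values (58.5% to 62.7% per library) fell within 0.1 of a whole read at the depth chosen for that match, and depths of 32400000 to 37600000 reads in the controls and 35200000 to 38700000 in the siRNA libraries were estimated. Read numbers below are estimates from these depths and the transcript lengths. Tet2, one of the targeted genes, was 2.57, 4.08 and 3.71 RPKM in the controls and 0.358, 0.238 and 0.202 RPKM in the siRNA libraries (log2 fold change -1.80, SE 0.133, limma adjusted p = 2.88e-05). Tet1 was 0.032, 0.098 and 0.05 RPKM in the controls and 0.001, 0.01 and 0.001 RPKM in the siRNA libraries. Its groups did not overlap, but at under 0.1 RPKM in all 6 libraries it was not tested and could not serve as a firm check. Differences were tested with limma on log2(RPKM + 1) over the 13266 genes whose mean reached 0.1 RPKM, and a gene was called at a Benjamini-Hochberg adjusted p under 0.05. All log2 fold changes are siRNA minus control on that scale, which understates the change of low genes.

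Of the 10 members, 3 passed the filter on low values. Among these S100a8 was called higher and Camp lower while Lcn2 was not called. Camp reached the minimum mean through its controls alone, with means of 1.45 RPKM in the controls and 0.058 RPKM with siRNA. Across all genes tested 44.5% were called, 14.7% higher and 29.8% lower, so calls in both directions were common throughout the table. The median log2 fold change of the 3 tested members was 0.12, beside -0.09 over all genes tested. At an unadjusted p under 0.05 with a fold over 2 on the log2(RPKM + 1) scale, which counts fewer low genes than a ratio of RPKM would, S100a8 was again higher and Camp lower, beside 6.58% of all genes tested, 0.95% higher and 5.63% lower. The other 7 members had means under 0.1 RPKM. The split of calls over all genes moved with the scaling, from 33.1% higher as deposited to 49.1% after scaling by the median ratio and 57.9% after quantile normalization. The calls and directions of S100a8 and Camp did not move under these scalings.

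**Figure D1:**
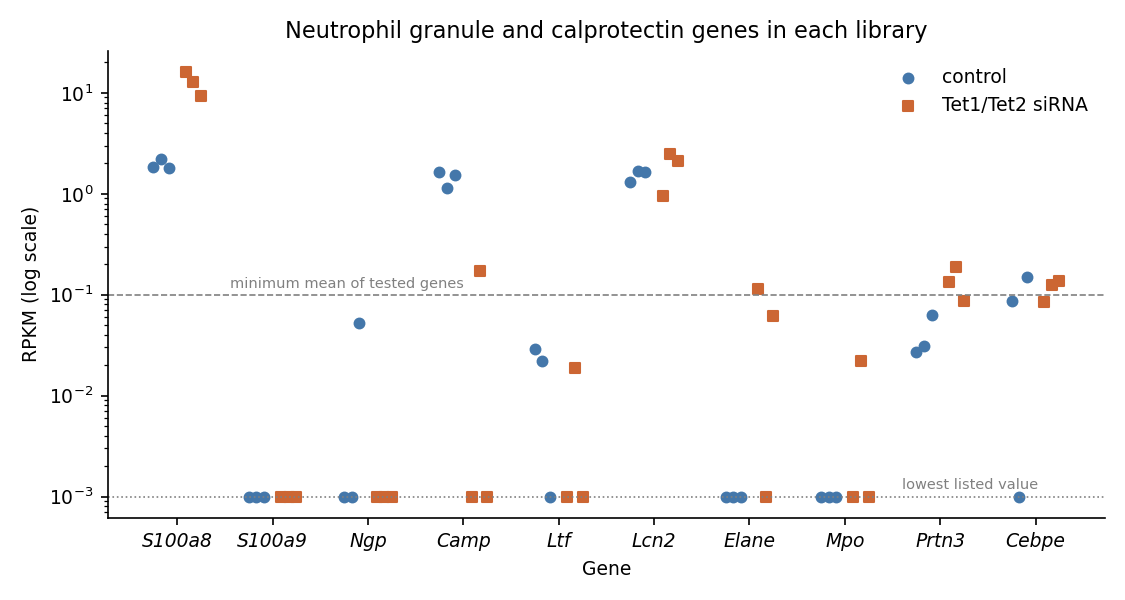
RPKM of the 10 members in each library on a log axis, with control and siRNA libraries as separate points and a dotted line at the lowest listed value and a dashed line at the minimum mean of tested genes. S100a8 stood at 9.20 to 16.1 RPKM in the siRNA libraries against 1.81 to 2.22 in the controls, Camp was at most 0.172 RPKM in the siRNA libraries, and S100a9 was at the lowest listed value in every library.

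S100a8, the smaller calprotectin subunit, was the most abundant member and rose in the siRNA libraries. It was 1.83, 2.22 and 1.81 RPKM in the controls and 16.1, 12.8 and 9.20 RPKM in the siRNA libraries. Every siRNA library lay above every control. The mean went from 1.95 ± 0.233 (SD, n = 3) to 12.7 ± 3.44 RPKM (SD, n = 3), a ratio of 6.49. The log2 fold change was 2.18 (SE 0.174, 95% confidence interval 1.78 to 2.58, limma adjusted p = 4.13e-05). By the size of its increase S100a8 ranked 8 among the 13266 genes tested. The values corresponded to 34, 36 and 29 reads in the controls and 309, 246 and 161 reads in the siRNA libraries on a transcript of 498 bases. Leaving out any 1 library gave log2 fold changes of 2.01 to 2.38, all called.

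S100a9, the other calprotectin subunit, was listed at 0.001 RPKM in all 6 libraries. A single read on its 519-base transcript was worth 0.0498 to 0.0595 RPKM, so 3 reads, the limit that a count of 0 allows, came to at most 0.178 RPKM in any library. This limit covers counting error only and rests on the estimated depths. In the same libraries S100a8 was at least 1.81 RPKM. An exact lowest value can also be a failed estimate, and whether that was so for S100a9 was not tested. Of 82 ribosomal protein rows in the table, 0 were at the lowest value in all libraries and 2 had a mean under 0.2 RPKM. Of all 36915 rows, 18360 were at the lowest value in all 6 libraries. Neither count can show whether the estimate for S100a9 failed. No direction can be given for S100a9.

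Camp, the cathelicidin precursor of specific granules, fell. It was 1.64, 1.15 and 1.54 RPKM in the controls and 0.001, 0.172 and 0.001 RPKM in the siRNA libraries. The groups did not overlap, and siRNA replicates 1 and 3 were at the lowest listed value. The mean went from 1.45 ± 0.259 to 0.058 ± 0.0987 RPKM (SD, n = 3 each). The log2 fold change was -1.21 (SE 0.103, 95% confidence interval -1.44 to -0.97, limma adjusted p = 5.52e-05). On the scale with 1 RPKM added, this placed Camp at rank 548 by decrease among the 13266 genes. The difference rested on 47, 29 and 38 estimated reads in the controls against 0, 5 and 0 in the siRNA libraries. No annotated gene overlapped Camp. Its neighbours Nme6, at 4263 bases, and Cdc25a, at 25962 bases, were not called (adjusted p = 0.103 and 0.0572 by limma). Both were lower in the mean (log2 fold change -0.23 and -0.27), and for Cdc25a every siRNA library lay below every control.

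Lcn2, a siderophore-binding protein of specific granules that many cell types secrete under inflammatory stimuli, was not called. It was 1.31, 1.69 and 1.62 RPKM in the controls and 0.943, 2.48 and 2.11 RPKM in the siRNA libraries. The siRNA libraries lay on both sides of the controls, with siRNA replicate 1 the lowest of all 6. The means were 1.54 ± 0.203 and 1.85 ± 0.803 RPKM (SD, n = 3 each). The log2 fold change was 0.12 (SE 0.199, 95% confidence interval -0.34 to 0.58, limma adjusted p = 0.646). Its result rested on single libraries. Without siRNA replicate 1 the log2 fold change was 0.38 (adjusted p = 0.0372), and without siRNA replicate 2 it was -0.044 (adjusted p = 0.883).

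**Figure D2:**
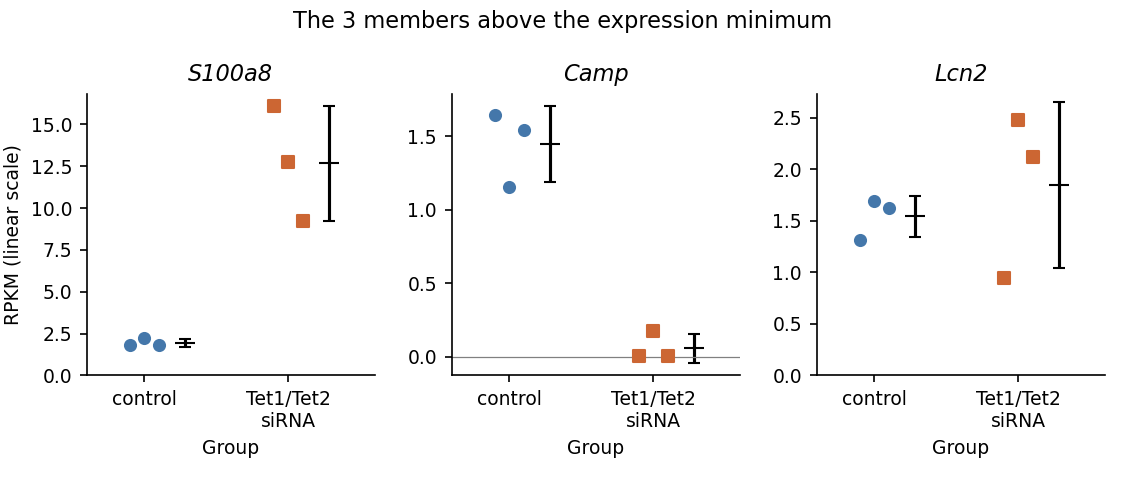
RPKM of the 3 tested members, S100a8, Camp and Lcn2, on a linear axis of its own for each gene, with a point for each library and a bar beside it for the group's mean and SD (n = 3 each). The groups did not overlap for S100a8, which was higher with siRNA, and for Camp, which was lower, and they overlapped for Lcn2.

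The other specific granule genes among the members, Ltf and Ngp, were at the limit of detection. Ltf, the iron-binding lactoferrin, was 0.029, 0.022 and 0.001 RPKM in the controls and 0.001, 0.019 and 0.001 RPKM with siRNA. These were 3, 2 and 0 reads against 0, 2 and 0. Ngp, a cystatin-related granule protein, was above the lowest value in control replicate 3 alone, at 0.053 RPKM or 2 reads. At this depth no difference was detectable for either gene, with limma adjusted p of 0.546 for Ltf and 0.476 for Ngp in a fit with no filter. In the controls, where Camp was highest, the 3 libraries together held 114 estimated Camp reads beside 5 of Ltf and 2 of Ngp.

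The azurophil granule genes among the members were also under 0.2 RPKM in every library. Prtn3, a serine protease, was 0.027, 0.031 and 0.063 RPKM in the controls and 0.133, 0.186 and 0.087 RPKM in the siRNA libraries. The groups did not overlap, but the values stood for 1, 1 and 2 reads against 5, 7 and 3. Among the 18534 genes above the lowest value in any library, 14.8% had every siRNA library above every control and 27.4% had the reverse order. Prtn3 was too low for the main test. With no filter its log2 fold change was 0.13 (SE 0.0337, limma adjusted p = 0.0326), in a fit that called 30.0% of all genes, with 9.77% of all genes called higher. Prtn3 overlaps Plppr3, listed as Lppr3, on the opposite strand, whose mean was 4.06 RPKM in controls and 3.29 RPKM with siRNA (limma adjusted p = 0.0536). The sources used here do not say whether strand was used in counting, so reads of the pair cannot be told apart.

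Elane, neutrophil elastase, was at the lowest value in all 3 controls and was 0.113, 0.001 and 0.061 RPKM in the siRNA libraries, from 4, 0 and 2 reads. Mpo, the peroxidase that is among the most abundant transcripts of promyelocytes, was above the lowest value in siRNA replicate 2 alone, at 0.022 RPKM or 2 reads. Mpo overlaps Gm11505 on the opposite strand, so these reads cannot be assigned with certainty either. Neither difference was detectable at this depth, with limma adjusted p of 0.163 for Elane and 0.618 for Mpo in the fit with no filter. Cebpe, the transcription factor of the specific granule program, was 0.086, 0.001 and 0.149 RPKM in the controls and 0.084, 0.125 and 0.137 RPKM in the siRNA libraries. Its groups overlapped, with 4, 0 and 6 reads against 4, 6 and 6 (unfiltered adjusted p = 0.521 by limma).

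Summed over the members, the level was 4.94, 5.12 and 5.24 RPKM in the controls and 17.4, 15.8 and 11.6 RPKM in the siRNA libraries. That was 0.00114% to 0.00133% of all RPKM in the controls and 0.00274% to 0.00394% in the siRNA libraries. S100a8 made up the difference: without it the sums were 3.10, 2.90 and 3.43 RPKM against 1.28, 3.01 and 2.40 RPKM, and the groups overlapped. The 7 low members together held 8, 3 and 10 estimated reads in the controls and 13, 17 and 11 in the siRNA libraries. Between 5 and 7 members were above the lowest value in any library. The direction of S100a8 was not shared by Camp, and no other member passed the main test.

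Several further neutrophil marker genes, of early and late stages, were near 0, while Csf3r, Mmp8, Fpr1, Fpr2 and Trem3 were not. Ly6g, the surface antigen used to sort mouse neutrophils, had 2 estimated reads over all 6 libraries, both in controls. Retnlg had 0 reads. Cxcr2, the chemokine receptor of circulating neutrophils, had 9 reads, all in siRNA replicate 3. Ctsg, the azurophil protease cathepsin G, had 5, 0 and 2 reads in the controls and 2, 0 and 7 in the siRNA libraries, and Ms4a3 had 3 reads in all. Of 23 neutrophil lineage markers, 15 had a mean under 0.1 RPKM and 6 were at the lowest value in all libraries. Among the 8 tested, 3 were called higher and 2 lower, beside 14.7% and 29.8% of all genes tested. The median log2 fold change of the 8 was 0.23. Csf3r, the receptor for granulocyte colony-stimulating factor, rose from 6.84, 7.02 and 6.91 RPKM to 15.8, 15.5 and 13.7 RPKM (log2 fold change 1.01, limma adjusted p = 3.85e-05). Mmp8, the neutrophil collagenase of specific granules, rose from 4.41, 4.35 and 2.67 RPKM to 25.1, 23.3 and 19.9 RPKM (log2 fold change 2.32, adjusted p = 2.01e-05). Mcemp1 was called higher at means of 0.207 and 0.487 RPKM. Fpr2, a formyl peptide receptor, fell from 2.66 to 1.23 RPKM in the mean (adjusted p = 0.00467). Fpr1 (means of 2.66 and 3.33 RPKM) and Trem3 (1.41 and 1.46 RPKM) were not called (limma adjusted p = 0.248 and 0.896). Padi4, the enzyme that citrullinates histones in neutrophils, was called lower at means of 0.279 and 0.079 RPKM. It passed the filter on low values through its controls alone. Padi4 lost the call without control replicate 1 or 2 or siRNA replicate 1 or 2 (adjusted p = 0.061 to 0.128). In these bulk libraries, fewer cells of a type and less RNA per cell cannot be told apart.

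**Figure D3:**
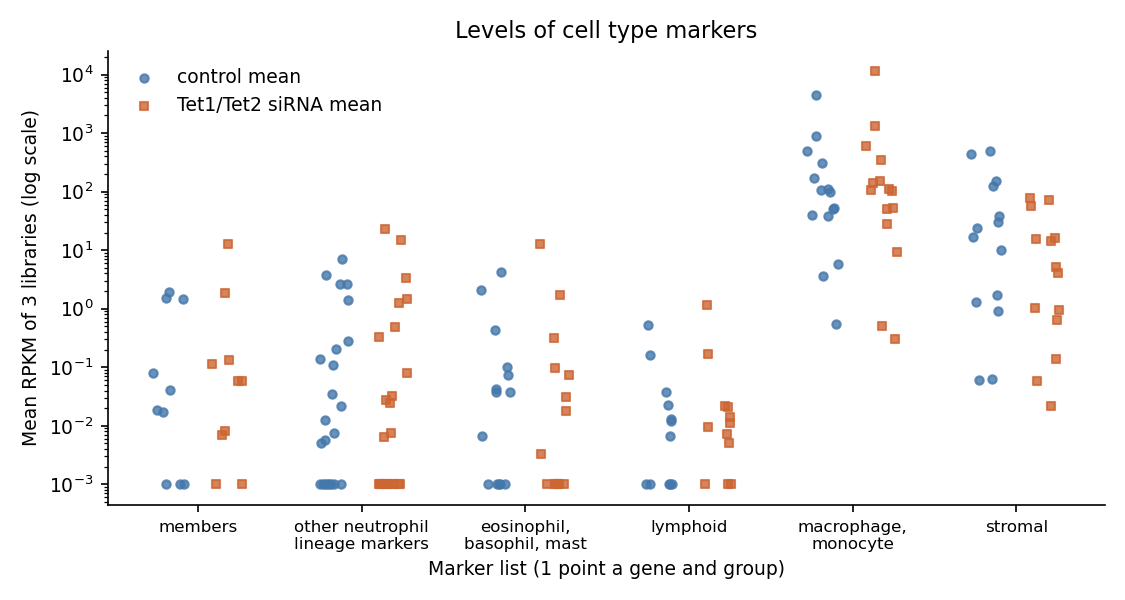
Mean RPKM of each gene of 6 lists on a log axis, the members and markers of other cell types, with 1 circle for the mean of the 3 controls and 1 square for the mean of the 3 siRNA libraries. The highest member, S100a8, stood at 12.7 RPKM with siRNA, while 12 of the 15 macrophage and monocyte markers had means of at least 10 RPKM.

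Macrophage and monocyte markers changed in both directions. Over all genes tested, 14.7% were called higher and 29.8% lower. All 15 genes of the marker list were tested, and 12 had means of at least 10 RPKM. Of these 15 markers, 9 were called higher, 4 lower and 2 not called (median log2 fold change 0.27). Their sum was 5771 to 7490 RPKM in the controls and 12818 to 15756 RPKM in the siRNA libraries. Most of it was Lyz2, the lysozyme of macrophages and neutrophils, at means of 4439 and 11321 RPKM (log2 fold change 1.36, limma adjusted p = 0.00101), which fell to 0.06 and was not called after quantile normalization (adjusted p = 0.461). Csf1r, the receptor for macrophage colony-stimulating factor, was called at 499.5 and 603.9 RPKM (adjusted p = 0.0173) and Itgam, an integrin of myeloid cells, at 97.2 and 111.9 RPKM (adjusted p = 0.0199). Csf1r lost its call without control replicate 2 or siRNA replicate 2 or 3 (adjusted p = 0.0622 to 0.0806), and Itgam without control replicate 1 or 2 or siRNA replicate 2 or 3 (adjusted p = 0.0506 to 0.0893). Ptprc, the pan-leukocyte antigen CD45, was 52.6 and 53.0 RPKM (adjusted p = 0.949). Marco, a scavenger receptor, rose from 40.4 to 108.2 RPKM (adjusted p = 2.88e-05). Cd68, a lysosomal protein of macrophages, rose from 874.8 to 1316 RPKM (adjusted p = 0.00247). Adgre1, a surface marker of mouse macrophages that is listed as Emr1, was 304.5 and 349.7 RPKM (adjusted p = 0.0624, or 0.036 with the replicate number as a block). Fcgr1, the high-affinity IgG receptor, fell from 109.1 to 27.8 RPKM, and Ly6c2 of inflammatory monocytes fell from 3.68 to 0.502 RPKM. Of 14 stromal markers 12 were tested, 9 were called lower and 1 higher (median log2 fold change -2.40). Their sum was 1130 to 1636 RPKM in the controls and 198.4 to 337.8 RPKM with siRNA. Col3a1, a fibrillar collagen, fell from 124.6 to 14.1 RPKM and Cxcl12, a chemokine of marrow stroma, from 38.9 to 3.99 RPKM, while the adhesion molecule Vcam1 rose from 16.9 to 55.9 RPKM. The part of the macrophage and stromal levels in the change of S100a8 or Camp was not tested.

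Other granule genes were a wider list of 22. The 10 with means under 0.1 RPKM, among them Ctsg, Ms4a3, Cd177, Fcnb and Itgb2l, were not tested. Of the 12 tested, 7 were called higher and 3 lower, beside 14.7% and 29.8% of all genes tested. The median log2 fold change was 0.40 in the list and -0.09 over all genes tested. Beyond Mmp8 and Lyz2, the increases included Chil3, a chitinase-like protein of specific granules and macrophages, at means of 0.373 and 1.94 RPKM (limma adjusted p = 0.00113). Orm1, an acute-phase lipocalin, rose from 0.456 to 1.61 RPKM (adjusted p = 0.000241) and stood on both this list and that of relatives of Lcn2. The other increases were Cyba (696.5 to 1025.9 RPKM), Cybb (124.8 to 146.5 RPKM) and Arg1 (1.30 to 2.59 RPKM). Their limma adjusted p were 0.00668, 0.0177 and 0.000928. The decreases were Ptx3, a pentraxin stored in specific granules, from 32.0 to 2.10 RPKM, Hp, the haemoglobin-binding haptoglobin, from 66.0 to 30.3 RPKM, and Slpi, a protease inhibitor, from 6.72 to 3.68 RPKM. The 3 had adjusted p of 2.65e-06, 0.000177 and 0.0131.

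**Figure D4:**
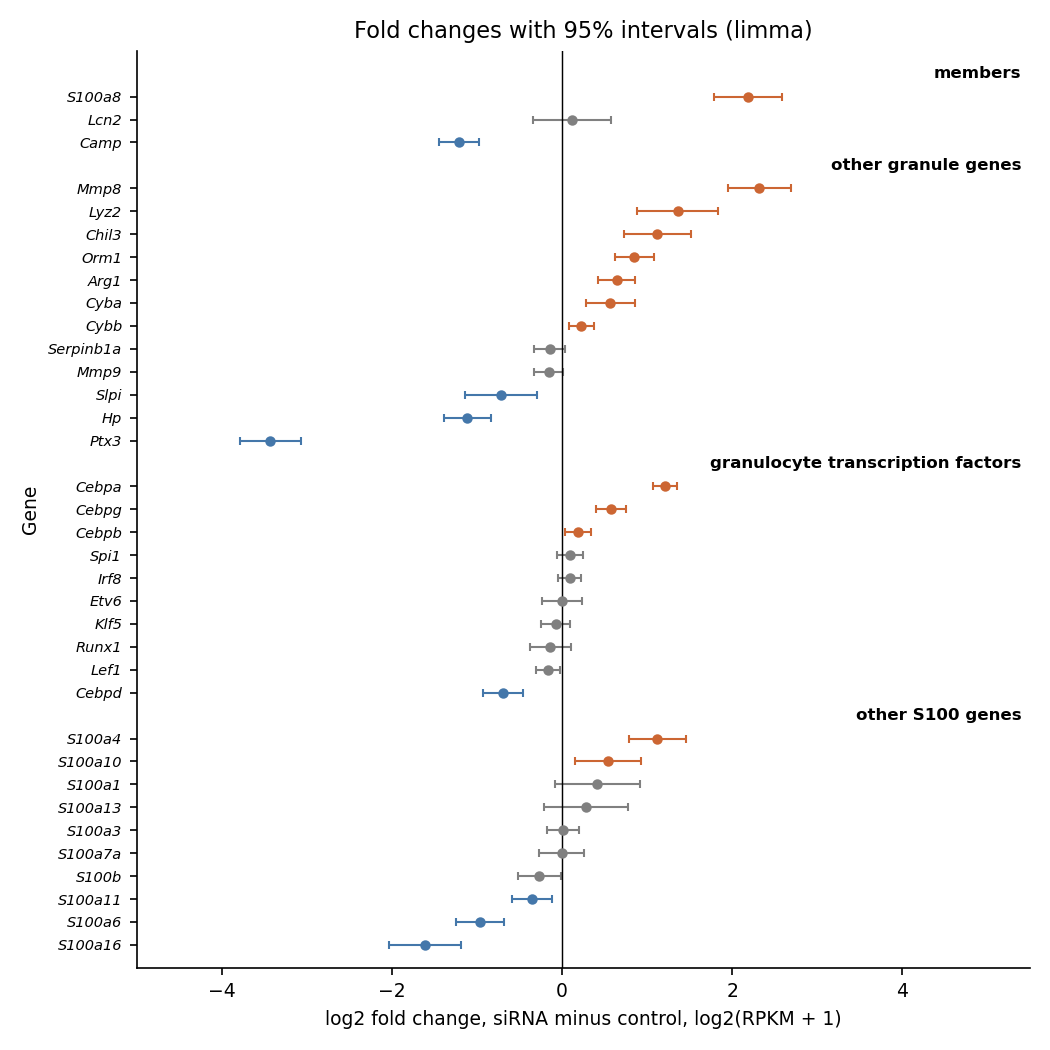
Log2 fold change, siRNA minus control on the log2(RPKM + 1) scale, of each tested gene among the members, other granule genes, granulocyte transcription factors and other S100 genes, with bars for 95% confidence intervals (limma, n = 3 each). Orange marks genes called higher, blue those called lower and grey those not called. Among the members S100a8 lay at 2.18, Lcn2 at 0.12 and Camp at -1.21.

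Among 12 transcription factors of granulocyte development, which act upstream of the granule genes, 10 were tested. Of these, 3 were called higher and 1 lower (median log2 fold change 0.05), beside 14.7% and 29.8% of all genes tested. Cebpa, which starts the granulocyte and monocyte program, rose from 114.2, 110.9 and 105.6 RPKM to 268.4, 252.8 and 248.4 RPKM (log2 fold change 1.21, limma adjusted p = 5.46e-06), while its relative Cebpe stayed under 0.15 RPKM in every library. Cebpg rose from 13.9 to 21.2 RPKM (adjusted p = 0.000473). Cebpb was called at 76.8 and 87.5 RPKM (adjusted p = 0.0451) but lost the call without any 1 library except control replicate 3 (adjusted p = 0.0547 to 0.167). Cebpd, a C/EBP factor induced in inflammation, fell from 11.4 to 6.64 RPKM (adjusted p = 0.000808).

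A list of 12 cytokines, receptors and intracellular factors that induce S100a8, S100a9 or Lcn2 had 8 tested genes. Of these, 6 were called lower and 0 higher (median log2 fold change -0.79), beside 29.8% and 14.7% of all genes tested. The 6 were the cytokines Il6, Il10 and Tnf and the intracellular factors Nfkbiz, Stat3 and Hif1a, while Il1a and Il17ra were not called. Il6 fell from 2.80 to 0.175 RPKM, Tnf from 8.31 to 3.78 RPKM and Nfkbiz, the nuclear inhibitor of NF-kappa-B zeta needed for Lcn2 induction, from 3.79 to 1.28 RPKM (limma adjusted p = 4.04e-05, 0.000214 and 0.00103). Of 9 receptors and partners of the secreted proteins, 8 were tested, 2 were called higher and 3 lower. Tlr4, a receptor for calprotectin, fell from 26.4 to 16.4 RPKM, and its co-receptor Cd14 rose from 38.8 to 50.5 RPKM (adjusted p = 0.000315 and 0.00878). Lrp1, an endocytic receptor for lactoferrin, was called at 232.0 and 334.6 RPKM (adjusted p = 0.0214) but lost the call without any 1 library except control replicate 3 (adjusted p = 0.0503 to 0.0757).

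Of the 14 other S100 genes, 10 were tested, 2 were called higher and 3 lower (median log2 fold change 0.01). The shares over all genes tested were 14.7% higher and 29.8% lower. S100a4 rose from 107.0 to 230.2 RPKM, and S100a6, which lies 44797 bases from S100a8, fell from 730.5 to 374.2 RPKM (limma adjusted p = 0.00044 and 0.000388). S100a16 fell from 32.6 to 10.3 RPKM (adjusted p = 0.000223). S100a10 (132.0 and 188.1 RPKM, called higher) lost its call without control replicate 2 or any siRNA replicate (adjusted p = 0.053 to 0.1), and S100a11 (179.8 and 140.0 RPKM, called lower) without any 1 library except control replicate 3 (adjusted p = 0.0529 to 0.0868). Among 13 inhibitors of neutrophil serine proteases, the partners of Elane and Prtn3, 6 were tested, 1 was called higher and 3 lower. Serpina3g fell from 1.68 to 0.271 RPKM (adjusted p = 5.63e-05). Serpinb1b was called at 0.875 and 1.32 RPKM (adjusted p = 0.034) but lost the call without any 1 library except siRNA replicate 1 (adjusted p = 0.0523 to 0.0889). Of 16 relatives of Lcn2, Ltf and Mpo, 5 were tested, 2 were called higher and 1 lower. Trf, the transferrin gene related to Ltf, rose from 95.1, 93.5 and 90.2 RPKM to 300.5, 326.8 and 330.3 RPKM (log2 fold change 1.77, adjusted p = 8.61e-07). Apod, a lipocalin related to Lcn2, fell from 2.63 to 0.039 RPKM (adjusted p = 4.13e-05). Apod passed the filter on low values through its controls alone.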

How the data were processed

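Total RNA of 3 control and 3 siRNA samples was sequenced as paired reads (NEBNext Ultra libraries). Per the study's methods and processing notes, the authors trimmed adaptors and mapped to GRCm38 with DNASTAR Lasergene 15.0. The authors deposited linear RPKM per gene, named FPKM in the methods. The release of the annotation, strand use and treatment of reads with several matches are not given in the sources used here. The labels give passage 2 and the methods an earlier passage. The methods of the RNA sequencing call the controls vehicle. The deposited p-value column was not used.

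Here limma 3.58.1 (R 4.3.3) was fitted to log2(RPKM + 1) with trended empirical Bayes over the 13266 genes whose mean reached 0.1 RPKM, using Benjamini-Hochberg adjustment and a threshold of 0.05. Depth was estimated as the read total at which low RPKM values came closest to whole reads: 58.5% to 62.7% of 257 to 526 values per library were within 0.1 of a whole read, against 15.6% to 16.7% at the median depth tried. Since the depth was chosen for this match, read numbers are estimates. Within groups Pearson's r over genes was 0.992 to 0.9972, between groups 0.9489 to 0.9689. Deviations from the group means correlated by 0.149, 0.117 and 0.462 for replicates 1, 2 and 3, all over 0.1. An alternative therefore took the number as a replicate block. However, control replicate 1 correlated more with siRNA replicate 2 (0.332), and control replicate 2 more with siRNA replicate 1 (0.205), so the pairing is uncertain. The top 10 rows held 10.6% to 11.8% of all RPKM in the controls and 17.8% to 20.1% in the siRNA libraries.

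The members and lists were chosen with earlier results of these data known. Named genes were all members, Tet1 and Tet2, up to 3 called genes of each list with the largest increase and 3 with the largest decrease, preset neutrophil and macrophage markers, and the 5 genes most correlated with S100a8. Some other genes of the lists are given to complete a count and are not among the 53 named genes below. Meltf is listed as Mfi2. Alternatives changed the pseudocount, filter, scaling, call rule, block, repeated symbols, moderation and the libraries used.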

Additional observations from a re-analysis of the deposited data

How the results depend on the processing

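S100a8 kept its direction and call in 17 alternatives (log2 fold change 2.01 to 2.66, highest limma adjusted p = 0.000541), and Camp in the 16 that tested it (-5.68 to -1.07, highest adjusted p = 0.00318). A minimum mean of 1 RPKM left Camp untested and 0 members called lower. With no filter on low values, and with no filter and a pseudocount of 0.01 (chosen after seeing the data), 2 members were called higher, S100a8 and Prtn3. The fit with no filter called 9.77% of its 18534 genes higher. The fit with the pseudocount of 0.01 as well called 1822 of 18534 higher. Without 1 library the members called higher ranged from 1 to 2, the second being Lcn2, whose log2 fold change ranged from -0.044 to 0.38. With the replicate block S100a8 was 2.18 (adjusted p = 1.29e-05), Camp -1.21 (8.1e-05) and Lcn2 0.12 (0.44), and the block changed no member's call. In the other lists 31 calls were higher and 34 lower, while over all genes tested 14.7% were called higher and 29.8% lower. An unadjusted p under 0.05 with a fold over 2 on the log2(RPKM + 1) scale left 12 and 17 in the lists. That rule called 0.95% of all genes tested higher and 5.63% lower. Other settings gave 24 to 34 calls higher and 30 to 36 lower in the lists. For 53 named genes outside the members, 826 of 896 refits kept the direction and side of the threshold, 64 lost the call, 3 gained it and 3 reversed. The reversals were all of Ptprc, a gene near no change (0.01), at -0.054 after rescaling to the same sum and -0.073 to 0.088 without 1 library. Where no cause is given, the cause was not tested. Depth limits the 7 low members, for which 0 to 7 reads per library set each value.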

Other observations

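Markers of other blood cells were low, with few exceptions. The calls below stand beside 14.7% of all genes tested called higher and 29.8% called lower. Of 14 genes of eosinophils, basophils and mast cells, 3 were tested. Ear2, an eosinophil-associated ribonuclease also found in macrophages, rose from 2.08 to 12.6 RPKM (log2 fold change 2.13, limma adjusted p = 2.25e-05), and Mcpt8, a basophil protease, fell from 4.17 to 1.68 RPKM (adjusted p = 0.000472). Of 11 erythroid genes 9 were in the table and 1 was tested, Epor, the erythropoietin receptor, which rose from 0.886 to 2.14 RPKM. Of 12 lymphoid genes 2 were tested, and Cd79b was called at 0.533 and 1.14 RPKM (adjusted p = 0.0217) but lost the call without control replicate 2, siRNA replicate 2 or siRNA replicate 3 (adjusted p = 0.0592 to 0.0742). Of 8 megakaryocyte and progenitor genes 5 were tested and 2 were called higher, Pf4 (235.1 to 603.3 RPKM, adjusted p = 0.000228) and Ppbp (0.188 to 0.864 RPKM, adjusted p = 0.00665), which encode platelet chemokines. The parts of these levels in the changes of S100a8 and Camp were not tested.

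The genes whose log2(RPKM + 1) followed that of S100a8 most closely over the 6 libraries were Cd83 (Pearson r = 0.9997), Hebp1 (0.9977), Sdha (0.9973), Soat1 (0.9972) and Armc2 (0.997), and 72 genes had r over 0.99. The 6 points share the same 2 groups, so the values only describe a like split of the groups. Cd83, a surface marker of activated dendritic cells, was 4.94, 5.20 and 4.92 RPKM in the controls and 9.61, 8.79 and 7.83 RPKM in the siRNA libraries, with the same order of the siRNA libraries as S100a8.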
